A study of Mus musculus with 24 samples.

Results

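Endothelial identity genes are described here across the guts of mouse embryos that lacked Ret, Sema3d or both. The set holds 38 genes for endothelial junctions, surface proteins, receptors, transcription factors and secreted proteins. They were found by gene symbol, and all 38 stand in each of the authors' 4 deposited tables, of 26260 genes listed in any of them. The samples are 24 whole guts from embryonic day 12.5, sequenced as poly-A RNA, with 3 female and 3 male embryos in each of 4 genotypes. Guts were wildtype, homozygous Ret null, homozygous Sema3d null, or homozygous null for both genes (Ret-Sema3d double null), and the strain label of every group names C57BL/6, 129/Sv and C3H. Ret is the signalling receptor for GDNF and its relatives, and Sema3d is a secreted semaphorin. The study's question was whether the 2 genes interact in building the enteric nervous system. The labels name no conditional allele or Cre driver, and RNA was taken from each whole gut without sorting of cells.

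Endothelial cells line blood and lymph vessels. They hold together through adherens junctions built on VE-cadherin and through tight junctions, and they sense flow, growth factors and lipids through surface receptors. Their identity rests on ETS-family factors such as Erg and Fli1 and on the SOX factors Sox7, Sox17 and Sox18. Class 3 semaphorins are known as cues for vessels as well as for axons, acting through neuropilins and plexins.

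The deposited values are fits over 6 wildtype and 6 null guts with sex as a covariate, with 1 more fit over all 24 guts. Values per gut are not given in them, and the depth of each library is unknown. A change is the log2 coefficient of the null genotype against wildtype, with its derived standard error after ±. A gene was called where the authors' adjusted p was below 0.05. A fitted level is in normalised counts, taken from the 24-gut fit and averaged over the sexes. The targeted genes were measured first. Ret had a fitted level of 1523 in wildtype, 4.72 in Ret null, 1328 in Sema3d null and 1.15 in double null guts from the authors' deposited table. Sema3d had 815, 677, 389 and 396 in the same order, so its transcripts were reduced in the Sema3d null guts but remained measurable.

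Promoter sequence is shown for 4 members, since their changes shared 1 sign in double null guts and some of the set's own transcription factors belong to the ETS family. Each window is the 250 bases before the start given by RefSeq (GRCm38.p6), printed 5′ to 3′ on the gene's strand, and none of the windows overlaps a GENCODE M21 exon. Capitals mark AGGAAG or its reverse complement CTTCCT, a spelling of the ETS core. Adgrf5 (chr17:43360181-43360430, plus strand) had the smallest p in double null guts. Eng (chr2:32646345-32646594, plus strand) had the smallest p in Sema3d null guts. Adgrl4 (chr3:151437632-151437881, plus strand) had the smallest p between double null and Ret null guts. Gja5 (chr3:97032152-97032401, plus strand) had the largest interaction coefficient, and its window lies inside the span of a longer annotated Gja5 transcript.
Adgrf5: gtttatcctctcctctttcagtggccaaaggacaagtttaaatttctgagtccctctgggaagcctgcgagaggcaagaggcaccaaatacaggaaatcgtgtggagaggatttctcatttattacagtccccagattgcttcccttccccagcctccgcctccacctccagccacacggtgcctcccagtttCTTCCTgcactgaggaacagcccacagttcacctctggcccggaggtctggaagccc
Eng: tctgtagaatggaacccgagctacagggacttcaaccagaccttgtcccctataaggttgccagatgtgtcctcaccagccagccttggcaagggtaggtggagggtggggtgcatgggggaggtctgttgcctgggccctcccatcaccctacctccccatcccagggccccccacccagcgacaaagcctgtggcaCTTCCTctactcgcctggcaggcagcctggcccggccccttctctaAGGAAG
Adgrl4: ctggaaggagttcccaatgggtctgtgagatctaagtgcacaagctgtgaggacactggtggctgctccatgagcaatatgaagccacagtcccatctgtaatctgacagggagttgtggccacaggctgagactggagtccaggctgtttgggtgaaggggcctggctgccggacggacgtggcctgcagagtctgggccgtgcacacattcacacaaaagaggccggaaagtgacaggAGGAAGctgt
Gja5: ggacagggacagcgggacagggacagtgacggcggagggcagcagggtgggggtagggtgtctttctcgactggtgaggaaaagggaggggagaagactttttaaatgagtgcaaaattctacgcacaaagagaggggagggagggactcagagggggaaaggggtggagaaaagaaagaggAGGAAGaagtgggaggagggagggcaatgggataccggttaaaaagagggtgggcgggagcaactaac
The match begins 57 bases before the start in Adgrf5, 52 and 6 in Eng, 10 in Adgrl4 and 68 in Gja5. RefSeq promoter entries were given for 19 of the 38 members. AGGAAG stood on either strand in 11 of these 19 windows, against 29.2% of all 27025 windows of the same length. The shorter GGAAG, which is contained in it, stood in 16 of 19 against 63.6%. A SOX spelling, ACAAT, stood in 7 of 19 against 28.3%, and the GATA spelling AGATAA in 2 of 19 against 10.3%, both read on either strand. The spellings, and the 4 windows as ones that hold a match, were chosen after values had been seen. A match describes letters and not a site.

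All 38 members were measured in wildtype gut, with fitted levels between 37.2 for Lyve1 and 1624 for Cdh5 and a median of 225 normalised counts. Per kilobase of exon, Cdh5, which encodes VE-cadherin, was the highest at 386. Plvap, the protein of endothelial diaphragms, followed at 349 per kilobase. The apelin receptor gene Aplnr had 195, the TGF-beta co-receptor gene Eng 177 and the junction gene Pecam1 147 per kilobase. The lowest per kilobase were Lyve1, a hyaluronan receptor of lymphatic vessels, at 12.8, the scavenger receptor gene Stab2 at 14.3 and the transcription factor gene Sox17 at 15.9. Of the set, 36 of 38 members had a level of at least 50 in every genotype.

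Of the 38 members, 9 were called higher and 0 lower in double null guts than in wildtype guts in the authors' deposited table. Over all genes tested there, 2.1% were called, 0.231% higher and 1.87% lower. The 9 were Adgrf5, Pecam1, Cdh5, Mmrn2, Stab2, Plvap, Ecscr, Icam2 and Esam, with increases of 16.9% (Plvap) to 34.7% (Ecscr) in level. All 38 members had a positive log2 change, with a median of 0.23 and a range of 0.10 (Cldn5) to 0.43 (Ecscr), while 51.5% of all genes tested were positive and their median was 0.01. At an unadjusted p below 0.05, 23 members were higher and 0 lower, where 2.72% of all genes were higher. With the change of the 24-gut fit and its approximate error, chosen after seeing the data, 4 of the 9 were called (Cdh5, Mmrn2, Pecam1 and Stab2), where 0.0757% of genes were called higher. In whole-gut RNA, more endothelial cells and more RNA per endothelial cell cannot be told apart.

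**Figure D1:**
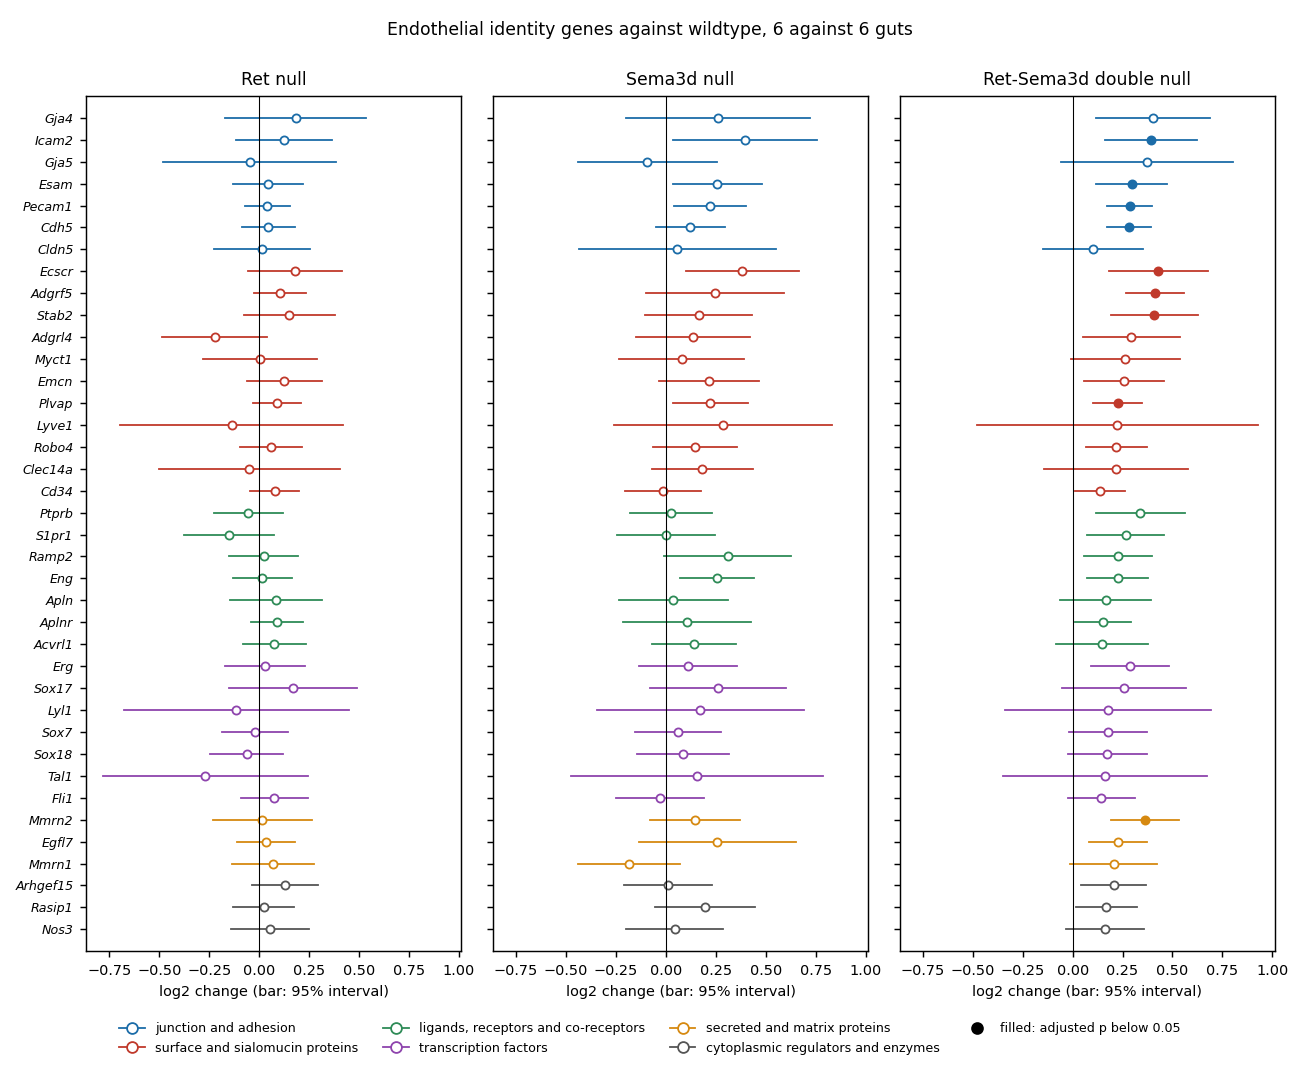
Log2 change against wildtype of each of the 38 genes in guts of each null genotype, coloured by role; points are the deposited coefficients, bars the 95% intervals from the derived error, and filled points have an adjusted p below 0.05. All points of the double null panel lie above 0 and 9 are filled, while no point is filled in the other panels.

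Members were then read by role in double null guts, in groups of 3 to 11 genes, and no test compared the groups. For each group, the shares of all genes were 0.231% called higher and 2.72% higher at an unadjusted p below 0.05. The junction and adhesion genes held 4 of the 9 called members, from 7 in the group, with a group median of 0.29. Pecam1, the adhesion molecule CD31 at endothelial cell borders, had a fitted level of 916 in wildtype, 943 in Ret null, 1064 in Sema3d null and 1117 in double null guts. Its change in double null guts was 0.29 ± 0.06 (adjusted p 6.23e-05) in the authors' deposited table. Cdh5 stood at 1624, 1675, 1763 and 1973 in the same order of genotypes, and its double null change was 0.28 ± 0.06 (adjusted p 6.59e-05) in the authors' deposited table. For both genes the level was lowest in wildtype, close to it in Ret null and highest in double null guts. Icam2, a ligand for leukocyte integrins, had levels of 113, 123, 148 and 148, so that the Sema3d null and double null guts shared one level. Its double null change was 0.39 ± 0.12 (adjusted p 0.0388) in the authors' deposited table. Esam, an adhesion molecule of endothelial tight junctions, had levels of 237, 244, 282 and 290, and a double null change of 0.29 ± 0.09 (adjusted p 0.0474) in the authors' deposited table. The connexin genes of arterial endothelium, Gja4 and Gja5, had estimates as large but wider errors, at 0.40 ± 0.15 (adjusted p 0.193) and 0.37 ± 0.22 (0.921) in the authors' deposited table. Cldn5, the main claudin of endothelial tight junctions, had 0.10 ± 0.13 there, the smallest estimate of the set in the authors' deposited table.

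Among 11 surface and sialomucin proteins 4 were called, where 0.231% of all genes were called higher, with a group median of 0.26. Adgrf5, an adhesion G protein-coupled receptor, rose from a fitted level of 525 in wildtype to 698 in double null guts, with 564 in Ret null and 621 in Sema3d null guts between them. Its double null change was 0.41 ± 0.07 (95% interval 0.27 to 0.56, adjusted p 3.00e-06) in the authors' deposited table, the smallest p of the set. Stab2, the hyaluronan-clearing receptor of sinusoids, had levels of 125, 139, 140 and 167 in the same order of genotypes. The double null level was the highest, with a change against wildtype of 0.41 ± 0.11 (adjusted p 0.0140) in the authors' deposited table. Stab2 in double null guts differed from Ret null guts by 0.26 ± 0.12 and from Sema3d null guts by 0.25 ± 0.12. Neither difference was called by the approximate test described below. Ecscr, a regulator of endothelial chemotaxis, had levels of 115, 130, 149 and 154, and a change of 0.43 ± 0.13 (adjusted p 0.0362) in the authors' deposited table. Plvap had 694, 738, 808 and 810, and a change of 0.22 ± 0.06 (adjusted p 0.0166) in the authors' deposited table. As for Icam2, its Sema3d null and double null levels were nearly equal. The members of this group that were not called ranged from 0.14 ± 0.06 for the sialomucin gene Cd34 to 0.29 ± 0.12 for Adgrl4, an adhesion G protein-coupled receptor of sprouting vessels, in the authors' deposited table. Between them lay Emcn, another sialomucin gene, at 0.26, Myct1 at 0.26, Lyve1 at 0.22, the guidance receptor gene Robo4 at 0.22 and the C-type lectin gene Clec14a at 0.22 in the authors' deposited table.

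None of 7 ligands, receptors and co-receptors was called, although 5 had an unadjusted p below 0.05 in the double null comparison and the group median was 0.23. Ptprb, the phosphatase that restrains TIE2 and VE-cadherin signalling, had 0.34 ± 0.11 (adjusted p 0.111) in the authors' deposited table. S1pr1, the sphingosine-1-phosphate receptor of vessels, had 0.27 ± 0.10 (0.231), Eng 0.23 ± 0.08 (0.143), and Ramp2, the adrenomedullin receptor partner, 0.23 ± 0.09 (0.266) in the authors' deposited table. The peptide gene Apln, its receptor gene Aplnr and Acvrl1, the ALK1 receptor that signals with endoglin, lay between 0.15 and 0.17 in the authors' deposited table. The 7 transcription factor genes had the lowest median of the 4 larger groups, 0.18, with 0 called and 1 with an unadjusted p below 0.05. That gene was Erg (0.29 ± 0.10, adjusted p 0.144), while Fli1, Sox7, Sox18, Tal1 and Lyl1 lay between 0.14 and 0.18 and Sox17 at 0.26 in the authors' deposited table. Tal1 and Lyl1 also act in blood progenitors, and their errors were 0.26 each.

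Of 3 secreted and matrix proteins, Mmrn2, an endothelial extracellular matrix glycoprotein, was called. Its levels were 239 in wildtype, 241 in Ret null, 264 in Sema3d null and 307 in double null guts, and its change was 0.36 ± 0.09 (adjusted p 0.00192) in the authors' deposited table. Egfl7, a secreted factor of endothelium that takes part in vessel tube formation, had a change of 0.23 ± 0.07 in the authors' deposited table (adjusted p 0.0830) and was the first member outside the threshold. Mmrn1, found in platelets and lymphatic endothelium, had 0.21 ± 0.11 (adjusted p 0.847) in the authors' deposited table. The 3 cytoplasmic genes had a median of 0.17 and 0 called. They were the junction regulator gene Rasip1 at 0.17 ± 0.08, Arhgef15 at 0.21 ± 0.08 and the nitric oxide synthase gene Nos3 at 0.16 ± 0.10 in the authors' deposited table.

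**Figure D2:**
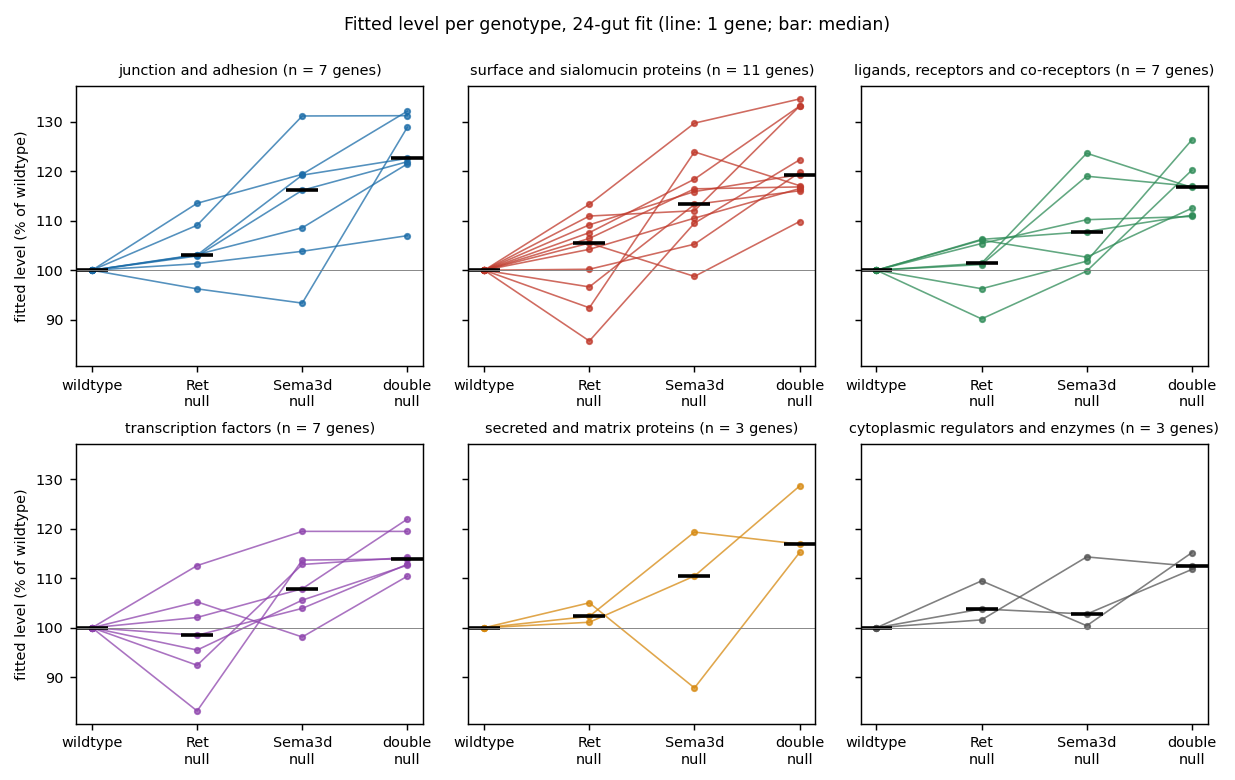
Fitted level of each gene (line) in the 4 genotypes as a percent of its own wildtype level, by role, from the 24-gut fit, with the group median as a black bar; the fits give no values per gut. Every gene ends above 100% in double null guts, and the Ret null values scatter on both sides of 100%.

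In Ret null guts no member was called in either direction, in a table that called 2.66% of all genes (0.386% higher, 2.27% lower), and 0 members had an unadjusted p below 0.05, where 8.43% of all genes did. The members' median was 0.04, with 28 positive and 10 negative and a range of -0.27 (Tal1) to 0.18 (Gja4), while 50% of all genes were positive. The smallest p belonged to Adgrl4, whose level was 103 in wildtype and 88.3 in Ret null guts, a change of -0.22 ± 0.13 (adjusted p 0.774) in the authors' deposited table. The next by p were positive, namely Adgrf5 at 0.11 ± 0.07 (adjusted p 0.820), Arhgef15 at 0.13 ± 0.08 (0.824), Ecscr at 0.18 ± 0.12 (0.834), Plvap at 0.09 ± 0.06 (0.854) and Aplnr at 0.09 ± 0.07 (0.909) in the authors' deposited table. For the 2 most precisely measured junction genes the 95% intervals in the authors' deposited table ran from -0.07 to 0.15 (Pecam1) and from -0.09 to 0.18 (Cdh5). Their double null estimates lie above those intervals, which leave out the error of the double null estimates. The differences between double null and Ret null guts, 0.25 ± 0.08 (Pecam1) and 0.24 ± 0.08 (Cdh5), were not called by the approximate test given below.

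Sema3d null guts also had no called member, but the estimates were mostly positive. The authors' deposited table called 0.0404% of all genes, so few calls were made of any kind. Of the 38 members 33 were positive and 5 negative, with a median of 0.15 and a range of -0.18 (Mmrn1) to 0.40 (Icam2), where 51.6% of all genes were positive. At an unadjusted p below 0.05, 6 members were higher and 0 lower, against 2.19% of all genes higher. Eng had the smallest p, with a level of 717 in wildtype and 853 in Sema3d null guts and a change of 0.25 ± 0.09 (adjusted p 0.829) in the authors' deposited table. The others were Ecscr at 0.38 ± 0.14 (adjusted p 0.849), Pecam1 at 0.22 ± 0.09 (0.962), Plvap at 0.22 ± 0.10 (0.962), Esam at 0.26 ± 0.11 (0.994) and Icam2 at 0.40 ± 0.18 (1.000) in the authors' deposited table. The errors of this table were wider: a member's Sema3d null error was 1.26 times its Ret null error at the median, and it exceeded the double null error in 32 of 38 members. The Sema3d null estimate was above the Ret null estimate in 31 of 38 members, including each of the 9 called in double null guts, and this difference was not tested. All 3 comparisons use the same wildtype guts.

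**Figure D3:**
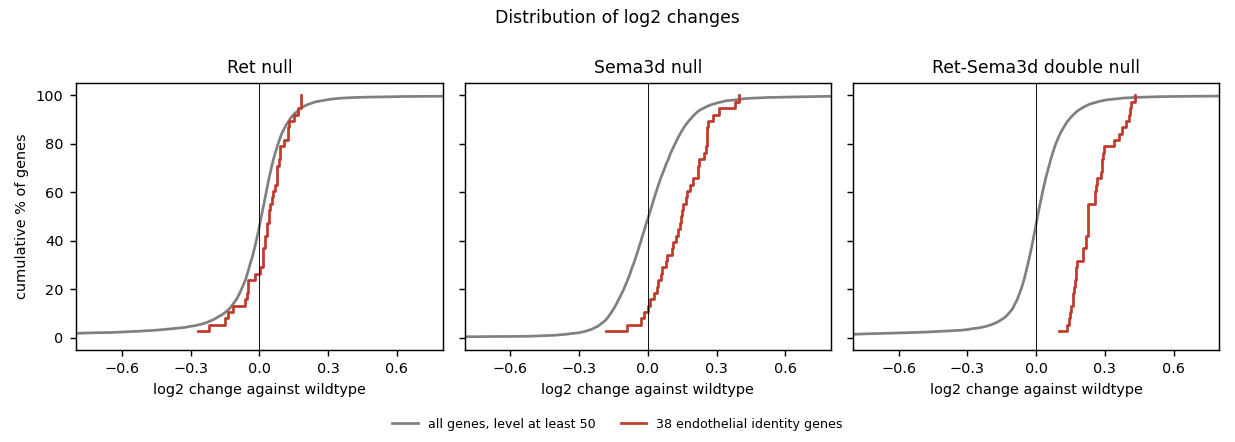
Cumulative percent of genes by log2 change against wildtype in the 3 comparisons, for the 38 endothelial identity genes (red) and for all genes at a fitted level of 50 or more (grey), drawn from -0.8 to 0.8. The red curve lies to the right of the grey one in Sema3d null and double null guts, with medians of 0.15 and 0.23, and near it in Ret null guts.

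Double null guts were then compared with each single null, a difference in which the wildtype level cancels. The estimate came from the 24-gut fit with an approximate error, adjusted over 22471 genes. Against Ret null guts, all 38 members were higher in estimate, with a median of 0.23 and a range of 0.06 to 0.51, where 51.2% of all genes were. None was called, where 0.0668% of all genes were called (0.049% higher). At an unadjusted p below 0.05, 14 members were higher and 0 lower, where 2.73% of all genes were higher. The largest difference was that of Adgrl4, 0.51 ± 0.13 (adjusted p 0.0956), whose level was 88.3 without Ret and 126 without both genes. S1pr1 had 0.41 ± 0.11 (adjusted p 0.139), Mmrn2 0.35 ± 0.10 (0.254) and Ptprb 0.39 ± 0.11 (0.267). Cdh5 and Pecam1 had differences of 0.24 ± 0.08 and 0.25 ± 0.08, with adjusted p of 0.497 and 0.517.

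Against Sema3d null guts the differences were smaller, with 32 of 38 members higher in double null guts (49.3% of all genes), a median of 0.08 and a range of -0.08 to 0.47. Here 1 member was called higher, where 2.43% of all genes were called and 0.694% were called higher, and 8 were higher at an unadjusted p below 0.05, where 5.56% of all genes were. The called member was Mmrn1, with levels of 160 in wildtype, 168 in Ret null, 140 in Sema3d null and 184 in double null guts. It differed by 0.39 ± 0.11 between double null and Sema3d null guts (adjusted p 0.0285), but was not called with the errors of the 12-gut tables. Of the 9 members called against wildtype, 0 were called against either single null by this approximate test. Icam2 and Plvap differed from Sema3d null guts by 0.00 ± 0.14 and 0.00 ± 0.08, with 95% intervals of -0.27 to 0.27 and -0.16 to 0.17. Stab2 differed by 0.25 ± 0.12 (adjusted p 0.392) and Cdh5 by 0.16 ± 0.08 (0.375). A difference between the double null and Sema3d null guts was therefore not shown for the called genes.

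The interaction term asks whether the double null level departs from the sum of both single null changes on the log2 scale. No member was called, where 0.164% of all genes were called (0.129% higher, 0.0343% lower), and 4 had an unadjusted p below 0.05, all with positive coefficients, where 4.07% of all genes had such a p and a positive coefficient. The members' median coefficient was 0.07, with 25 of 38 positive against 50.5% of all genes, between -0.17 (Sox17) and 0.52 (Gja5). S1pr1 had the smallest p, with levels of 177 in wildtype, 160 in Ret null, 177 in Sema3d null and 213 in double null guts. Its single null changes sum to -0.15 while its double null change was 0.27 in that fit, giving an interaction of 0.42 ± 0.16 (adjusted p 0.443) in the authors' deposited table. Ptprb, with levels of 379, 365, 386 and 479, had 0.37 ± 0.16 (adjusted p 0.625) in the authors' deposited table. Adgrl4 had 0.38 ± 0.19 (adjusted p 0.704), Mmrn1 0.32 ± 0.16 (0.721), Gja5 0.52 ± 0.30 (0.796) and Mmrn2 0.20 ± 0.14 (0.856) in the authors' deposited table. For the called genes Pecam1 and Cdh5 the coefficients were 0.03 ± 0.11 and 0.12 ± 0.11, with intervals of -0.19 to 0.25 and -0.09 to 0.33 in the authors' deposited table.

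**Figure D4:**
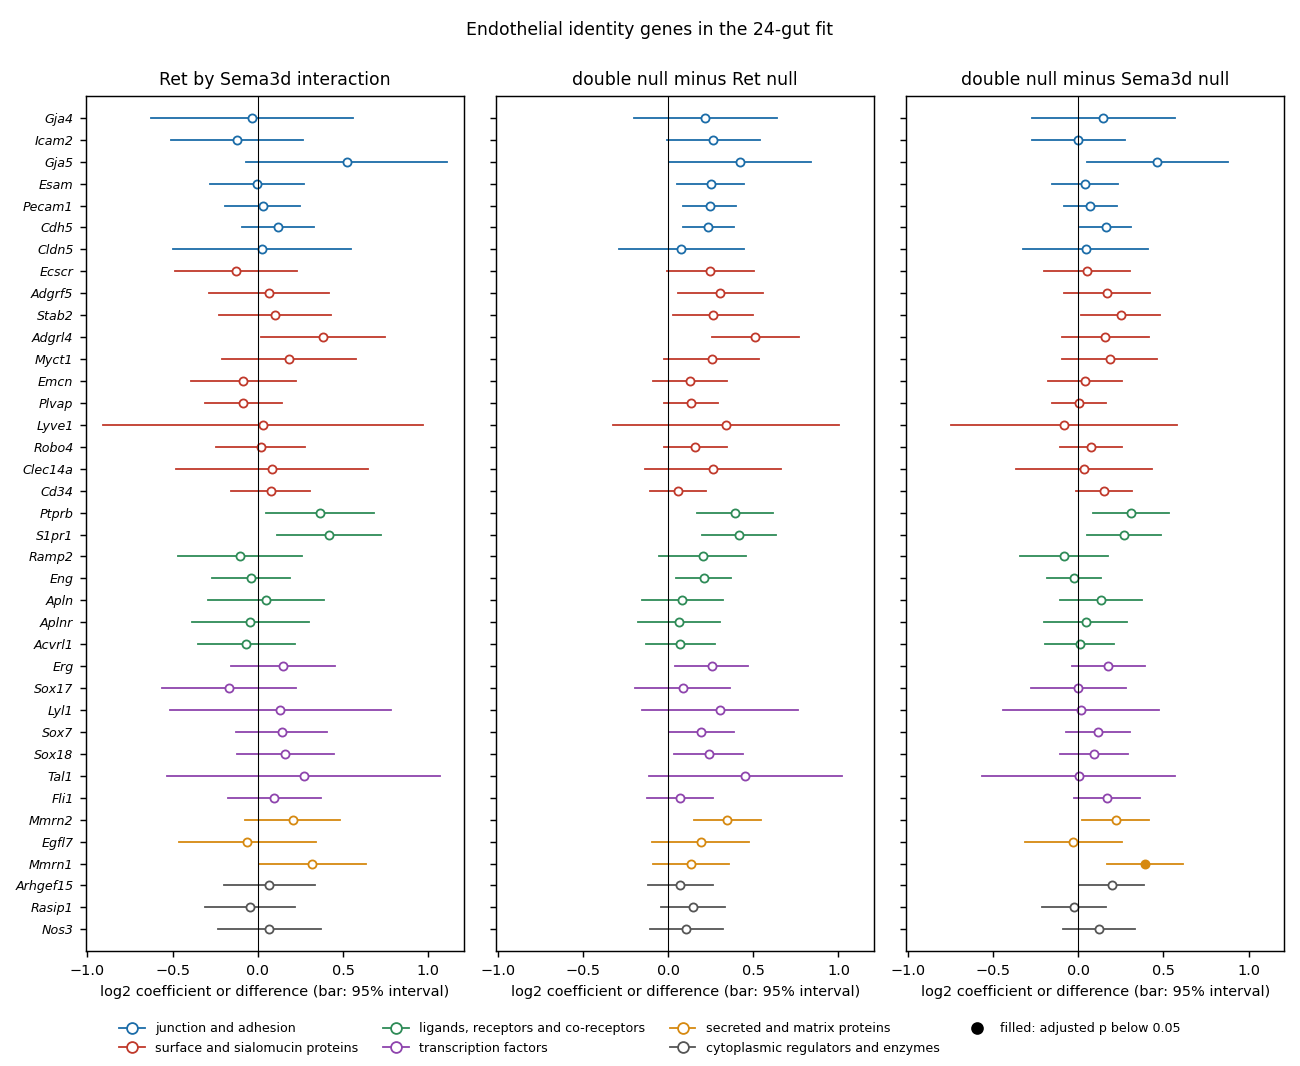
Interaction coefficient and differences between double null and each single null for the 38 genes in the 24-gut fit (log2), with 95% intervals and colours by role; intervals of the differences rest on the approximate error. Filled points have an adjusted p below 0.05, and the only one is Mmrn1 in the panel of double null minus Sema3d null.

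A further 46 genes of endothelial biology that are not members were read in the same way, among them the VEGF and angiopoietin receptors and the arterial, venous and lymphatic genes. In double null guts 7 of 46 were called higher and 0 lower, where 0.231% of all genes were called higher, with 38 positive and a median of 0.19. They were the receptor genes Flt1 at 0.47 ± 0.12 (adjusted p 0.00719), Tie1 at 0.30 ± 0.07 (0.00295) and Kdr at 0.19 ± 0.05 (0.0208), with Cd93, She, Plxnd1 and Cd36, between 0.22 and 0.54, in the authors' deposited table. Cd36 lies 5.19 Mb from Sema3d on chromosome 5, and Plxnd1 2.16 Mb from Ret on chromosome 6. In Ret null guts Efnb2, the arterial ephrin, was called higher at 0.20 ± 0.06, and Vcam1 (-0.45 ± 0.12), Heyl (-0.67 ± 0.20) and Tspan18 (-0.21 ± 0.06) lower, in the authors' deposited table. The median of the 45 genes tested there was -0.01. In Sema3d null guts 0 of 46 were called, with a median of 0.05. At an unadjusted p below 0.05, 6 of them were higher and 1 lower, where 4.53% of all genes had such a p in either direction. Against Sema3d null guts, Cd93 and She were called higher in double null guts by the approximate test, at 0.26 (adjusted p 0.0385) and 0.36 (0.0147). The activation selectins Sele and Selp and the early factor gene Etv2 had wildtype levels below 5.

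Markers of other cells in the gut were read beside these values. In double null guts 10 of 10 enteric neuron and glia genes were lower, with a median change of -3.38, per the authors' deposited table. Their summed level was 4031 in wildtype, 700.0 in Ret null, 3861 in Sema3d null and 684 in guts null for both genes. In the authors' deposited table for double null guts, 15 erythroid, 12 macrophage and 12 megakaryocyte and blood progenitor genes had medians of 0.08, -0.06 and 0.04, with 0 called in each list. Pericyte and mural genes had a median of 0.09, with 7 positive and 2 negative, in the authors' deposited table. The 2 negative genes, Ndufa4l2 and Rgs4, were the 2 called, at -2.19 and -1.83 in the authors' deposited table. Both were also called lower in Ret null guts, at -2.47 and -2.11. In Sema3d null guts they had 0.44 and -0.02 and were not called. Smooth muscle, fibroblast, epithelium and mesothelium lists had medians between 0.05 and 0.16 in double null guts with 0 called. Like the members, they leaned to positive estimates, with 9 of 10 smooth muscle, 10 of 10 fibroblast, 8 of 10 epithelium and 10 of 10 mesothelium genes positive. Summed levels in double null guts were 105% of wildtype for smooth muscle, 106% for fibroblast, 103% for epithelium, 111% for mesothelium and 112% for erythroid genes. The summed level of 10 hepatocyte genes was 2239 in wildtype, 959 in Ret null, 3988 in Sema3d null and 3965 in double null guts. The sum was low without Ret alone and high in both genotypes without Sema3d. Singly, 10 of 10 were negative in Ret null, 10 of 10 positive in Sema3d null and 9 of 10 positive in double null guts. In double null guts Apoa1, Ttr, Serpina1a and Trf lay between -0.05 and 0.11 in the authors' deposited table, so the sum does not describe each gene. None of the 10 was called in any of the 3 comparisons with wildtype, while Ahsg was called higher in double null than in Ret null guts by the approximate test (5.03, adjusted p 0.00237). Their median error in double null guts was 1.08, and none had a wildtype level below 5. The summed level of the 38 members reached 119% of wildtype in double null guts, 110% in Sema3d null guts and 103% in Ret null guts. That of the 46 other endothelial genes was 111%, 101% and 103% in the same order. Pericyte and mural genes had 110%, 100% and 97.5%. By this measure the other endothelial genes in double null guts stood no higher than the mesothelium or erythroid genes. The part of liver tissue, which lies beside the gut and holds Stab2- and Lyve1-bearing sinusoids, in the endothelial values was not tested. Without 12 members picked by hand as ones that blood cells also express, 6 of the remaining 26 were called higher in double null guts. Over all genes tested there, 0.231% were called higher. The 12 are not a full list of members with expression in blood cells.

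**Figure D5:**
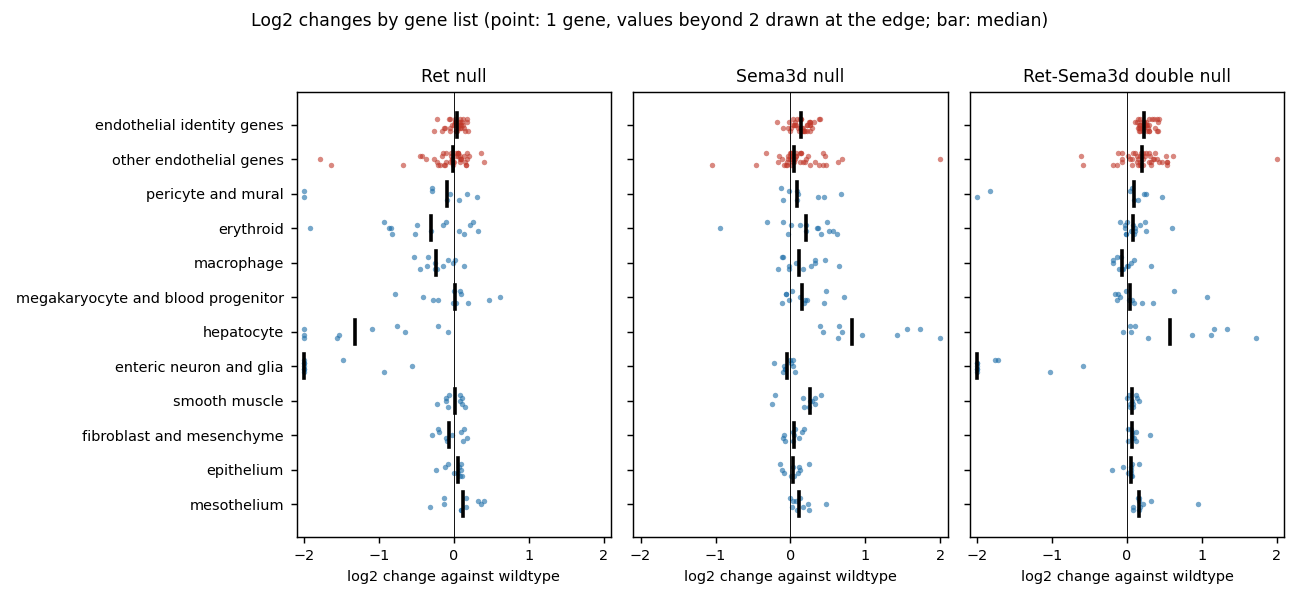
Log2 change against wildtype for the 38 endothelial identity genes, other endothelial genes (both red) and markers of other cell types (blue); each point is 1 gene, black bars are list medians, and values beyond 2 in size are drawn at the edge. The endothelial lists have medians of 0.23 and 0.19 in double null guts, and the neuron and glia list lies far to the left in both genotypes without Ret.

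Male and female guts were pooled in each fit with sex as a term, and the authors deposited no p for it. The male minus female coefficient of the 24-gut fit had a median of -0.03 over the members and 13 of 38 were positive. Only 3 members had a coefficient larger than 0.25 in size, all lower in males: Gja5 at -0.44, Lyl1 at -0.36 and Tal1 at -0.29 in the authors' deposited table. None of these 3 was among the members called in double null guts.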

How the data were processed

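The submitters' processing notes name, without roles, DESeq 1.24.0, RSEM 1.2.31, STAR, Trimmomatic 0.36 and FastQC 0.11.5, and the build GRCm38 (mm10). The 4 deposited tables hold coefficients for intercept, sex and genotype terms and the deviances of 2 models, per the file headers. The deposited deviances are scores of model fit. Deposited p-values and adjusted p-values are those of generalised linear models, per the file headers. They matched the chi-square tail of the deviance difference within 4.91e-09, and the adjusted ones matched a Benjamini-Hochberg adjustment of each table. The headers do not name the log base of the coefficients. The deposited coefficients of all 4 tables were read as log2 values, since the fitted wildtype levels then sum to 11.6 to 12.0 (in units of 1e6 normalised counts) per table. The symbol and gene type headers are exchanged in the Ret null table, whose columns were read by content.

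The standard error is the absolute coefficient over the square root of the difference in deviance. Differences between double null and single null guts are sums of coefficients of the 24-gut fit, with the interaction's error divided by the square root of 2, a normal p and a Benjamini-Hochberg adjustment. The division assumes equal precision of the 4 genotypes. This arithmetic was tested on simulated counts that had 1 setting of spread per gene in every genotype. The effect of unequal precision was therefore not tested, and in these data the members' Sema3d null errors were 1.26 times their Ret null errors at the median. Each table holds some unbounded coefficients, and those beyond 15 were read as fits against about 0. Exon lengths came from GENCODE M21. Computation used Python 3.11.15, pandas 2.3.3, numpy 2.4.6 and scipy 1.17.1. The members and the marker lists were chosen with earlier results of these data known. Every member is named, and full statistics are given for called members and for the 6 smallest p of each table. Of the other endothelial genes and the markers of other cells, called genes are named and the rest are given as counts and medians, so the up to 4 uncalled genes per list that the rule allowed are not given singly. Nothing shows that the guts of a genotype came from separate litters, so p-values measure the spread between these guts. Alternatives tried were other thresholds, a level minimum of 50, Holm adjustment, centring, removal of a length trend, omission of members of blood cells and other errors for the differences.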

Additional observations from a re-analysis of the deposited data

How the results depend on the processing

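The count of 9 members called in double null guts became 4 at an adjusted p of 0.01, 3 with Holm adjustment (Adgrf5, Pecam1 and Cdh5) and 4 with the 24-gut change and its approximate error, the last chosen after seeing the data. In that last setting Adgrf5 had an adjusted p of 0.0656. Its change was 0.41 in both fits, while its error was 0.13 in place of 0.07. The approximate error is derived from the interaction over all 4 genotypes, and so takes in the Sema3d null guts, where the Adgrf5 error was 0.18. The count was 10 at an adjusted p of 0.10 and 9 with adjustment over genes at a level of at least 50. It was 8 after centring on the median gene, where Esam was lost, and 9 after removal of the trend with exon length. The same 9 genes were called in the latter, and all 38 members stayed above 0. Of all genes, 0.231% were called higher at the main threshold and 0.0757% with the 24-gut change. For the other settings the share of all genes was not computed, so those counts describe the members only. Against Ret null guts the count went from 0 to 1 at an adjusted p of 0.10 (Adgrl4), and against Sema3d null guts from 1 to 0 with the errors of the 12-gut tables. In Ret null and Sema3d null guts and for the interaction, the count was 0 under each alternative run. The members' median changes moved by less than 0.01 with the 24-gut change, the level minimum or centring. Removal of the trend with exon length took them from 0.04 to 0.03 in Ret null guts (more than 1.5 times), from 0.15 to 0.13 in Sema3d null guts and left 0.22 in double null guts. For the interaction the median was 0.09 with that trend removed, with 27 of 38 members positive. Medians of all genes binned by exon length ran from -0.18 to 0.18 for the interaction and from -0.12 to 0.13 in Sema3d null guts. They ran from -0.04 to 0.04 in Ret null and from -0.01 to 0.02 in double null guts. Of the other values of the 9 called genes under alternatives, 33 kept their side of the threshold, 12 lost it and 0 reversed. No paired analysis was possible because the deposited tables hold no values per gut; for the same reason no gut could be left out in turn. The low fitted level of Lyve1, 37.2 in wildtype, and its double null error of 0.36 limit what can be read for that gene.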
